A study of Mus musculus with 6 samples.

Results

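The genes described here are 9 members of the fibroblast growth factor (FGF) system, 5 ligands (Fgf2, Fgf7, Fgf10, Fgf18 and Fgf20) and 4 receptors (Fgfr1, Fgfr2, Fgfr3 and Fgfrl1), taken by gene symbol from the 52550 genes of a raw count table. Of the 9, 6 passed the filter on low counts and were tested among 16402 genes. Fgf10, Fgf18 and Fgfr3 had too few counts. The RNA came from macrophages of C57BL/6 mice, either MSR1 KO, labelled as knockouts of macrophage scavenger receptor 1, or MSR1 WT, with 3 libraries of each genotype. In both genotypes, bone marrow cells were grown for 7 days in 25 ng/ml macrophage colony-stimulating factor, and the resulting macrophages then shared medium with BMSCs (bone marrow stem cells) across a transwell membrane for 48 h. The series asks which macrophage transcripts depend on MSR1 in this co-culture, and for the FGF system the comparison asks which growth factors and receptors differed between the genotypes.

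FGFs are secreted proteins that bring together pairs of receptor tyrosine kinases on the cell surface, with heparan sulfate chains as a partner for most ligands. The activated receptors signal through the adaptor FRS2 to RAS and ERK, to PI3K and AKT, and to phospholipase C gamma, and the pathway is restrained by inhibitors that it induces itself, such as the Sprouty proteins and DUSP phosphatases. In bone marrow and bone, FGF ligands and receptors are best known from stromal, osteoblast and cartilage cells, where they control the growth and maturation of the osteogenic lineage.

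The RefSeq table of promoter windows (GRCm38.p6) held 7 of the 9 members. The 250 bases before the start site are shown for Fgf7, Fgfr2 and Fgfrl1, the 3 genes with a window whose levels were lower in all MSR1 KO libraries, because the study is built around β-catenin, whose TCF/LEF partner proteins bind DNA with the core letters CTTTG. The window of Fgf7 is chr2:126034408-126034657 on the plus strand, directly before the annotated gene. That of Fgfr2 is chr7:130266809-130267058 on the minus strand, and that of Fgfrl1 is chr5:108693979-108694228 on the plus strand. Both of these windows lie inside the annotated gene span but in no exon of the gene. Capitals mark CTTTG or its reverse complement CAAAG.
Fgf7: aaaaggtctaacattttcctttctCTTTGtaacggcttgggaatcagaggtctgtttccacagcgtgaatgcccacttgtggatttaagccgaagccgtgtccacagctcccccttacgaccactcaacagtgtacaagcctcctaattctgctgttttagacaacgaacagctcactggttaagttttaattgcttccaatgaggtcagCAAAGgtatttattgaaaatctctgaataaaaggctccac
Fgfr2: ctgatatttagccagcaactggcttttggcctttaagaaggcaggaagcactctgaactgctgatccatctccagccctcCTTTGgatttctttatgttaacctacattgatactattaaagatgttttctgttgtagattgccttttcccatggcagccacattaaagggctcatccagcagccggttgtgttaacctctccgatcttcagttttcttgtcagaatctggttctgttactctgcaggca
Fgfrl1: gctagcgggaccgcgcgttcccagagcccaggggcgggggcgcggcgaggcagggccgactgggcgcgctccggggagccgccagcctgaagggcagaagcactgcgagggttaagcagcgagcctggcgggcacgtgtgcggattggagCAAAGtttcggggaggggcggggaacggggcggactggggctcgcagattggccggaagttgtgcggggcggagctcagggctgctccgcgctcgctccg
The Fgf7 window had 2 matches, at bases -226 to -222 and -40 to -36 from the start site. Fgfr2 had 1 match at -170 to -166, and Fgfrl1 had 1 at -100 to -96. Among all 32851 windows of the table, 48.6% held at least 1 match in the same 250 bases on either strand and 15.7% held 2 or more, so a match in these windows was common. The windows differed in CpG content over the whole 300 bases: Fgfr2 had 4 CpG, Fgf7 had 11 and Fgfrl1 had 37, against a median of 7 over all windows. None of the 3 windows contained TATAAA on either strand, which 13.6% of all windows did.

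The 6 libraries held between 36143518 and 47417448 counts. Msr1 itself was counted at 2118, 1825 and 2000 reads in MSR1 KO and at 7543, 9163 and 9219 in MSR1 WT, with a log2 fold change of -2.02 (SE 0.135, adjusted p = 0.00124, edgeR's quasi-likelihood test). Reads of Msr1 were thus lower but still present in every MSR1 KO library, at 49.3 ± 8.51 CPM (counts per 1000000 counts of the TMM-scaled library, SD, n = 3) against 199.7 ± 20.9 in MSR1 WT. The macrophage markers Lyz2, Csf1r, Adgre1, Mrc1 and Cd68 led their list, and the 14 macrophage markers summed to between 25540 and 28940 CPM in every library. Stromal transcripts, led by Col1a2, Col1a1, Sparc, Bgn and Col3a1, were also present in every library and are taken up beside the results they moved with. The labels do not tie libraries to single mice, so p-values measure the spread between these libraries.

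Per base of exon, Fgf7 was the most abundant of the 9 genes. In the MSR1 WT libraries, it reached 10.4 ± 0.996 RPKM (CPM divided by the exon length in kilobases, SD, n = 3), at percentile 81 of all genes with a count in those libraries. Fgfr1 followed at 2.43 ± 0.384 RPKM, then Fgfrl1 at 1.23 ± 0.213 and Fgfr2 at 1.05 ± 0.125. The libraries of Fgfrl1 and Fgfr2 overlapped, and these genes exchanged ranks when the length of the longest transcript, in place of the union of exons, was used. Fgf20 stood at 0.314 ± 0.0726 RPKM and Fgf2 at 0.111 ± 0.189, again with overlapping libraries, and Fgf18, Fgfr3 and Fgf10 were each at or under 0.0272 RPKM. In the MSR1 KO libraries, Fgf7 (6.20 ± 1.05 RPKM) and Fgfr1 (1.54 ± 0.280) kept the first and second rank. There Fgfrl1 (0.726 ± 0.129), Fgf2 (0.535 ± 0.126) and Fgfr2 (0.511 ± 0.178) had overlapping libraries, and Fgf20 was at 0.104 ± 0.0478. Of the summed RPKM of the 5 ligands, Fgf7 made up 94.3 to 97.0% in the MSR1 WT libraries and 89.1 to 91.1% in the MSR1 KO libraries.

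Among the 6 tested genes, 5 were lower DEGs in MSR1 KO (Fgf7, Fgf20, Fgfr1, Fgfr2 and Fgfrl1), a DEG being a gene that changed more than 1.5-fold with p under 0.05 before adjustment. Of all tested genes, 5.05% were lower DEGs. None was a higher DEG, against 3.59% of all tested genes. With edgeR's quasi-likelihood p-values adjusted by Benjamini-Hochberg over all tested genes, 1 of the 6 (Fgf7) had an adjusted p under 0.05, a threshold that 4.91% of all tested genes passed in either direction. DESeq2's Wald test put 3 of them (Fgf7, Fgfr1 and Fgfr2) past it, against 9.95% of all genes to which it gave an adjusted p. The levels of the 5 lower DEGs were below every MSR1 WT library in all 3 MSR1 KO libraries, an arrangement found for 13.4% of all tested genes. These 5 had already been picked as lower, so their arrangement is no separate evidence. For each of the 6, an exact two-sided permutation test over the libraries gave p = 0.1, the smallest that 3 against 3 libraries can give. The study, too, picked Fgf7 and Fgf20 from these same libraries, so their counts here are not independent of that choice. The paper also reports qPCR of both genes, which is not part of these counts. Fgf20 passed the filter only through its MSR1 WT libraries and Fgf2 only through its MSR1 KO libraries.

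**Figure D1:**
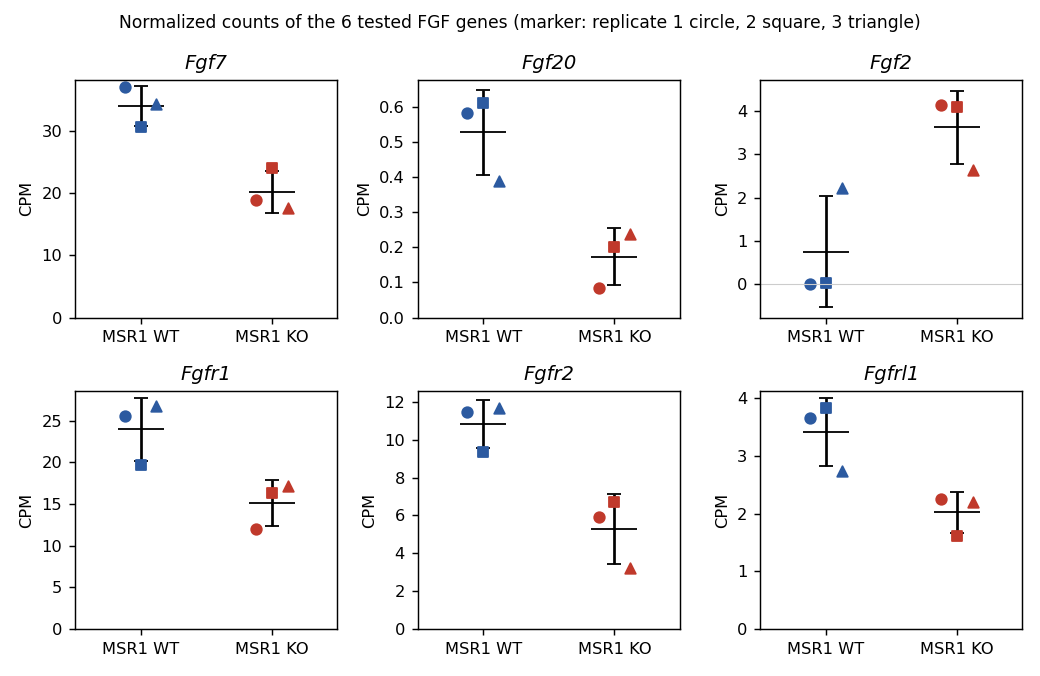
TMM-normalized CPM (y axis) of the 6 tested FGF genes in the MSR1 WT (blue) and MSR1 KO (red) libraries; points are libraries, horizontal bars are means and error bars are SD (n = 3). For Fgf7, Fgf20, Fgfr1, Fgfr2 and Fgfrl1, all MSR1 KO libraries lie below all MSR1 WT libraries, while Fgf2 has the opposite order with 2 MSR1 WT libraries at or near 0.

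Fgf7, also called keratinocyte growth factor, is a ligand that mesenchymal cells secrete and that acts on the epithelial splice form of FGFR2. Its gene lies at chr2:126034658-126091185 on the plus strand and shares no exon bases with another gene. In MSR1 KO, replicates 1 to 3 held 676, 956 and 819 counts of Fgf7, and in MSR1 WT they held 1525, 1449 and 1414. After normalization, these were 18.8, 24.01 and 17.6 CPM in MSR1 KO and 37.0, 30.5 and 34.2 CPM in MSR1 WT. The highest MSR1 KO library stayed below the lowest MSR1 WT library, and the mean fell from 33.9 ± 3.24 to 20.2 ± 3.398 CPM (SD, n = 3). The log2 fold change was -0.75 (SE 0.136, 95% interval -1.06 to -0.44, adjusted p = 0.026, edgeR's quasi-likelihood test). Leaving out 1 library put this adjusted p at 0.0921 (MSR1 KO replicate 1), 0.0682 (MSR1 KO replicate 3), 0.109 (MSR1 WT replicate 1) and 0.0555 (MSR1 WT replicate 2). These values are above 0.05, so Fgf7 did not pass the threshold there. The log2 fold change stayed between -0.90 and -0.66, and Fgf7 remained a lower DEG without any 1 library.

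Fgf20, a ligand of the FGF9 subfamily best known from inner ear, tooth and kidney development, lies at chr8:40279166-40308331 on the minus strand, 0.636 Mb from Msr1. Its counts were 3, 8 and 11 in MSR1 KO against 24, 29 and 16 in MSR1 WT. These few counts did not overlap between the genotypes, although the lowest MSR1 WT library exceeded the highest MSR1 KO library by only a few reads. The mean was 0.174 ± 0.0801 CPM in MSR1 KO and 0.527 ± 0.122 in MSR1 WT, with a log2 fold change of -1.57 (SE 0.565, 95% interval -2.86 to -0.27, adjusted p = 0.176, edgeR's quasi-likelihood test). Fgf20 was no longer a DEG, its unadjusted p rising above 0.05, without MSR1 KO replicate 1 (log2 fold change -1.25), MSR1 KO replicate 2 (-1.67), MSR1 WT replicate 1 (-1.49) or MSR1 WT replicate 2 (-1.45). The exons of Micu3, a regulator of mitochondrial calcium uptake on the opposite strand, cover 202 of the exon bases of Fgf20 (12.0%). Micu3 had 42, 104 and 94 counts in MSR1 KO and 312, 291 and 341 in MSR1 WT, and its log2 fold change of -1.91 (adjusted p = 0.0181, edgeR's quasi-likelihood test) had the same direction. Since the strand setting of the counting is not given in the sources used here, reads of Fgf20 and of Micu3 in the shared bases cannot be told apart.

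Fgf2, the basic fibroblast growth factor, leaves cells without a signal peptide and binds several FGF receptors. It lies at chr3:37348346-37410108 on the plus strand and was the only tested member with a higher mean in MSR1 KO. The MSR1 KO libraries held 149, 163 and 123 counts of Fgf2, but those of MSR1 WT held 0, 1 and 92. Thus MSR1 WT replicate 3 lay near the MSR1 KO libraries at 2.23 CPM against 2.65 to 4.15, and the other 2 MSR1 WT libraries were at or near 0. The count of 0 in MSR1 WT replicate 1 allows a level of up to 0.0728 CPM (3 counts, counting error only). The log2 fold change was 2.29 with an SE of 1.19 and a 95% interval from -0.45 to 5.03, and Fgf2 did not pass either threshold (adjusted p = 0.354, edgeR's quasi-likelihood test). Without MSR1 WT replicate 3, the adjusted p became 0.00193, with a fitted log2 fold change of 7.996 that rests on a single read in MSR1 WT. Such jumps within a genotype were rare in the table: of 13010 genes with 90 or more counts in some library, 29 (0.223%) were at 0 or 1 in one library and at 90 or more in another of the same genotype.

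The 3′ part of Fgf2 overlaps Nudt6, a nucleotide hydrolase gene on the opposite strand that is also known as the Fgf2 antisense gene, over 640 exon bases (9.44% of the exon bases of Fgf2). Its counts were 161, 164 and 162 in MSR1 KO and 145, 138 and 135 in MSR1 WT. It therefore showed no library near 0 where Fgf2 did, and its log2 fold change was 0.32 (SE 0.191, adjusted p = 0.431, edgeR's quasi-likelihood test). The same-strand transcript Gm43439, which shares 255 exon bases with Fgf2, had at most 2 counts in a library.

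**Figure D2:**
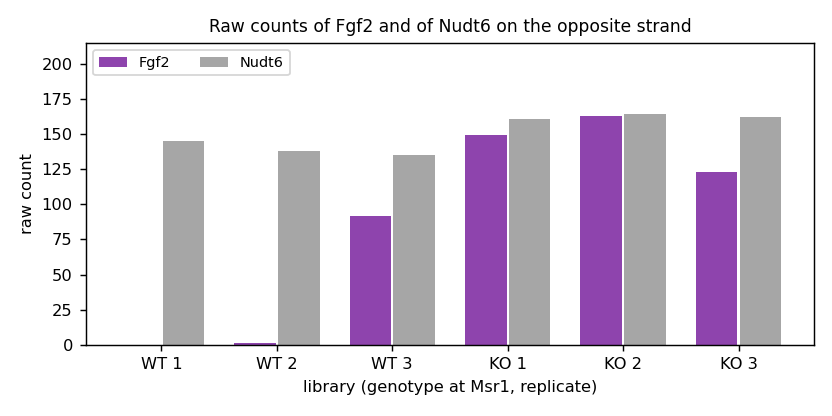
Raw counts (y axis) of Fgf2 (purple) and of Nudt6 on the opposite strand (grey) in each library (x axis, genotype and replicate). Nudt6 lies between 135 and 164 counts in all 6 libraries, whereas Fgf2 is at 0, 1 and 92 in the MSR1 WT libraries and between 123 and 163 in the MSR1 KO libraries.

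Fgf10, a mesenchymal ligand for the same receptor form as Fgf7 and required for limb and lung budding, was at 8, 0 and 0 counts in MSR1 KO and at 0, 4 and 0 in MSR1 WT (chr13:118669791-118792115, plus strand). Fgf18, a ligand that acts on cartilage and bone formation, had 4 counts in MSR1 WT replicate 3 and 0 in the other 5 libraries (chr11:33117430-33147400, minus strand). Both genes were thus at 0 in most libraries of either genotype, and a count of 0 allows levels of up to 0.0632 to 0.0835 CPM, depending on the library. An exact two-sided permutation test gave p = 1 for each, where 0.1 is the smallest possible.

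Fgfr1, a receptor widely expressed in mesenchymal cells, lies at chr8:25513654-25575718 on the plus strand, 14.0 Mb from Msr1. Its counts were 432, 652 and 797 in MSR1 KO and 1054, 934 and 1106 in MSR1 WT, or 12.0, 16.4 and 17.2 CPM against 25.6, 19.7 and 26.8 CPM. MSR1 KO replicate 1 was the lowest library, and the highest MSR1 KO library lay below the lowest MSR1 WT library. The mean was 15.2 ± 2.76 CPM in MSR1 KO and 24.01 ± 3.79 in MSR1 WT, and the log2 fold change was -0.66 (SE 0.1699, 95% interval -1.05 to -0.27, adjusted p = 0.0697, edgeR's quasi-likelihood test, adjusted p = 0.00625 by DESeq2). Without MSR1 KO replicate 1, it was -0.51, and without MSR1 WT replicate 3, it was -0.57, each under the fold change of a DEG. The antisense transcript Gm16159, which covers 1.66% of the exon bases of Fgfr1, had at most 11 counts in a library.

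Fgfr2, whose epithelial and mesenchymal splice forms differ in the ligands they bind, lies at chr7:130162451-133123350 on the minus strand. The libraries of MSR1 KO held 213, 267 and 149 counts of Fgfr2, and those of MSR1 WT held 473, 444 and 483. At 5.93, 6.71 and 3.21 CPM, all MSR1 KO libraries were below the 11.5, 9.36 and 11.7 CPM of the MSR1 WT libraries, and MSR1 KO replicate 3 was the lowest. The mean was 5.28 ± 1.84 CPM in MSR1 KO and 10.8 ± 1.29 in MSR1 WT, a log2 fold change of -1.04 (SE 0.262, 95% interval -1.64 to -0.44, adjusted p = 0.0641, edgeR's quasi-likelihood test, adjusted p = 0.00229 by DESeq2). It was -0.77 without MSR1 KO replicate 3. The counts are per gene and do not separate the splice forms. Exons of Ctbp2, a transcriptional co-repressor gene on the same strand, share 314 bases (3.04%) with those of Fgfr2, and the log2 fold change of Ctbp2 was -0.05 (adjusted p = 0.785, edgeR's quasi-likelihood test).

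Fgfrl1, which encodes an FGF-binding receptor without a tyrosine kinase domain, lies at chr5:108692382-108706924 on the plus strand. Counts of 81, 64 and 102 in MSR1 KO stood against 151, 182 and 113 in MSR1 WT. In CPM, the MSR1 KO libraries (2.26, 1.61 and 2.20) were below the MSR1 WT libraries (3.66, 3.84 and 2.74). The log2 fold change was -0.76 (SE 0.241, 95% interval -1.31 to -0.20, adjusted p = 0.13, edgeR's quasi-likelihood test), from 3.41 ± 0.592 CPM in MSR1 WT to 2.02 ± 0.358 in MSR1 KO. Fgfrl1 and Fgfr2 each remained a lower DEG without any 1 library.

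Fgfr3, the receptor that restrains growth plate cartilage, was at 0, 16 and 4 counts in MSR1 KO and at 0, 0 and 11 in MSR1 WT (chr5:33721674-33737068, plus strand). The genotypes overlapped (exact two-sided permutation p = 0.7, where 0.1 is the smallest possible).

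**Figure D3:**
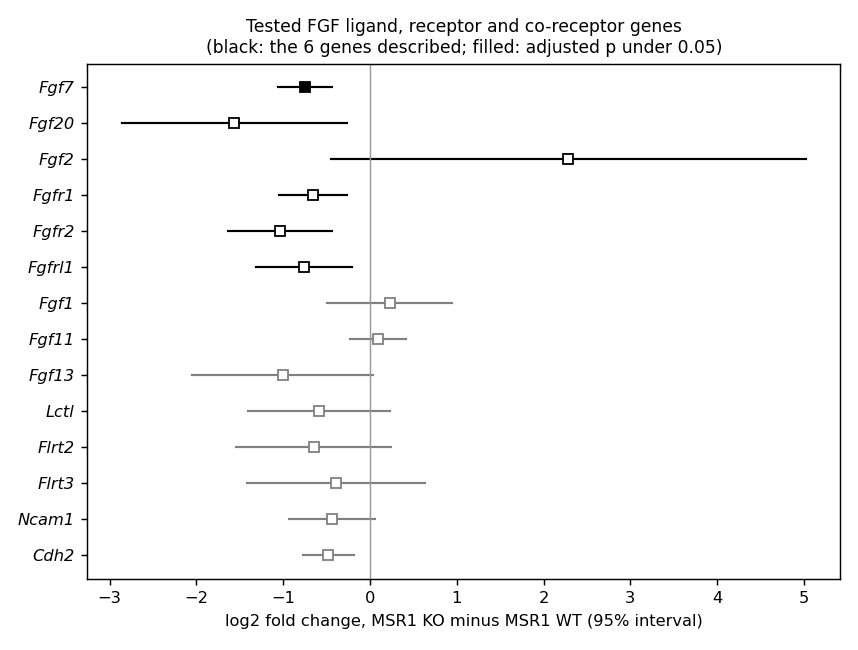
Log2 fold change of MSR1 KO against MSR1 WT (x axis) with 95% intervals from edgeR for the 6 tested FGF genes described (black) and 8 other tested ligand, receptor and co-receptor genes (grey); a filled square marks an adjusted p under 0.05. Fgf7 has the only filled square, and the widest interval is that of Fgf2, from -0.45 to 5.03.

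Fgf7, Fgfr1, Fgfr2 and Fgfrl1 were compared with each other within each library. For the 6 pairs of these genes, the log2 ratio of the CPM values overlapped between the genotypes, with exact two-sided permutation p-values between 0.3 and 1 and an adjusted p of 1 for every pair. The difference between the genotypes in these log2 ratios lay between -0.34 and 0.43. The log2 ratio of Fgfr1 to Fgfr2 was 1.16, 1.07 and 1.195 in the MSR1 WT libraries and 1.02, 1.29 and 2.42 in the MSR1 KO libraries. MSR1 KO replicate 3, the library with the lowest Fgfr2, stood apart there. With 3 libraries each, none of these tests could reach a p under 0.1. For likeness of pattern, the log2 CPM of each gene was centred on its own mean over the 6 libraries. The genes whose centred profile was most like that of Fgf7, out of 10773 genes with a mean of at least 5 CPM, were Cdh11, Gnao1 and Fbn1, with root mean square differences of 0.0376, 0.0377 and 0.0524 between the centred log2 values. For Fgfr1, they were Clmp, Smad6 and Ccdc102a at 0.0917, 0.1 and 0.105. These profiles share their libraries and carry no test.

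Markers of stromal cells moved with the lower FGF genes. Of 24 stromal markers, 12 were lower DEGs, 9 of them with an adjusted p under 0.05 in edgeR's quasi-likelihood test, and 1 (Thy1, named after its value was seen) was a higher DEG. The median log2 fold change was -0.53, against -0.0023 for all tested genes. Among all tested genes, 5.05% were lower DEGs, 3.59% were higher DEGs and 4.91% had an adjusted p under 0.05 in either direction. Bgn, a matrix proteoglycan, fell by 0.76 on the log2 scale (adjusted p = 0.0135, edgeR's quasi-likelihood test), while the log2 fold changes of the collagen genes Col1a2 and Col1a1 were -0.39 and -0.26 with adjusted p = 0.111 and 0.373 in the same test. The 24 markers summed to 2107, 2760 and 2194 CPM in MSR1 KO and 3688, 2916 and 3342 CPM in MSR1 WT, and none was at 0. Of 8 contractile stromal markers, led by Acta2, 4 were lower DEGs, with sums of 649 to 787 CPM in MSR1 KO and 1058 to 1311 CPM in MSR1 WT. In bulk RNA, fewer cells of a type and less RNA per cell cannot be told apart. The part of the stromal transcripts in the FGF differences was not tested.

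Relative to the stromal sum, Fgf7 was at 8.93, 8.70 and 8.03 CPM per 1000 CPM of stromal markers in the MSR1 KO libraries and at 10.03, 10.5 and 10.2 in the MSR1 WT libraries. The genotypes did not overlap, but the log2 difference was -0.26, compared with -0.76 for the mean log2 CPM without this ratio. For Fgfr2, the values were 2.82, 2.43 and 1.46 in MSR1 KO against 3.11, 3.21 and 3.50 in MSR1 WT, again without overlap, with a log2 difference of -0.60 in place of -1.10. Those of Fgfr1 (5.71, 5.94 and 7.81 against 6.93, 6.75 and 8.01) overlapped, as did those of Fgfrl1 (1.07, 0.583 and 1.00 against 0.993, 1.32 and 0.819). The log2 differences of these ratios were -0.17 for Fgfr1, in place of -0.67, and -0.26 for Fgfrl1, in place of -0.76. The most abundant markers weigh most in the stromal sum, and Col1a2, Col1a1 and Sparc were at log2 fold changes of -0.39, -0.26 and -0.38. Pdgfra (-1.19) and Cxcl12 (-1.11), named after their values were seen, fell more than Fgf7 and Fgfr2. The ratios therefore do not show a fall beyond that of every stromal marker. How many of all genes stay apart in this ratio was not tested.

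**Figure D4:**
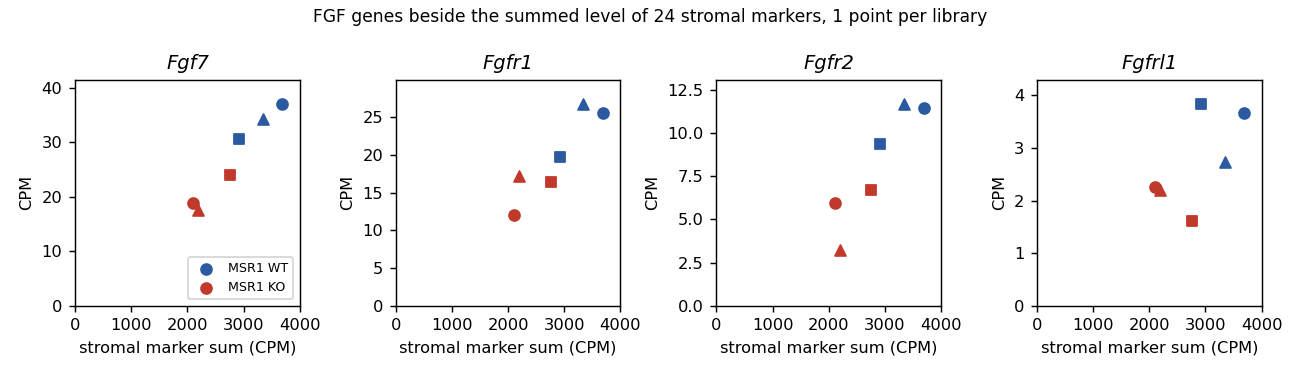
CPM of Fgf7, Fgfr1, Fgfr2 and Fgfrl1 (y axes) against the summed CPM of 24 stromal markers (x axes) in each MSR1 WT (blue) and MSR1 KO (red) library, with circles, squares and triangles for replicates 1, 2 and 3. The stromal sums of the MSR1 KO libraries, 2107 to 2760 CPM, lie below those of the MSR1 WT libraries, 2916 to 3688 CPM, as do the levels of the 4 genes.

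Markers of other cell types were summed in the same way, and their part in the FGF differences was not tested. Of the 14 macrophage markers, 2 were higher DEGs and none a lower DEG, although Mrc1, the mannose receptor gene, fell by 0.39 on the log2 scale (adjusted p = 0.0369, edgeR's quasi-likelihood test), and their sums overlapped between the genotypes. Higher DEGs made up 3.59% of all tested genes and lower DEGs 5.05%. Endothelial markers, led by Pecam1 (1 of 8 a higher DEG), summed to 118 to 145 CPM in MSR1 KO and 73.1 to 115 CPM in MSR1 WT. Dendritic cell markers were led by Itgax, which encodes an integrin that macrophages also make. They summed to 18.1 to 28.2 CPM in MSR1 KO and 78.8 to 146 CPM in MSR1 WT. Most of this sum was Itgax, at a log2 fold change of -2.50 (adjusted p = 0.00446, edgeR's quasi-likelihood test). Xcr1 and Clec9a, named after their values were seen, went the other way. Xcr1 was a higher DEG at 2.04 (adjusted p = 0.0596, same test), and Clec9a was at 1.80 in overlapping libraries. Flt3 and Zbtb46 were at -0.15 and -0.53, neither a DEG. B cell markers, led by Ighm, summed to 191 to 255 CPM in MSR1 KO and 124 to 164 CPM in MSR1 WT. The sums of the neutrophil (led by Ngp), T cell (Cd4), epithelial (Krt19) and erythroid (Klf1) markers overlapped between the genotypes. The epithelial sum, of the cell type that Fgf7 and Fgf10 classically act on, was 3.06 to 4.58 CPM, and Krt5, Krt8 and Krt14 were at 0 in all libraries.

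The rest of the FGF system was described by lists. Of 17 other FGF ligands, 7 were at 0 in all 6 libraries and 3 were tested, with no DEG. The most abundant by CPM were the intracellular FGF homologue Fgf11, at a log2 fold change of 0.09 (SE 0.142), and Fgf1, which can bind every FGF receptor, at 0.23 (SE 0.313). The third, Fgf13, an intracellular FGF homologue named after its value was seen, was at -1.01 (SE 0.455, adjusted p = 0.281, edgeR's quasi-likelihood test), with 0.937 ± 0.443 CPM in MSR1 KO and 1.88 ± 0.814 in MSR1 WT in overlapping libraries. Fgf13 was a lower DEG by DESeq2, without MSR1 KO replicate 1 and without MSR1 WT replicate 3. Of 9 other receptors and co-receptors, Fgfr4 and the klotho gene Kl were at 0 in all libraries and 5 were tested, again with no DEG. Their median log2 fold change was -0.48, with N-cadherin (Cdh2), which binds FGFR1, at -0.48 (SE 0.129, adjusted p = 0.0776, edgeR's quasi-likelihood test) and Flrt2 at -0.65 (SE 0.388, adjusted p = 0.427).

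Genes that carry FGFs or build and trim heparan sulfate made up the next list. Of 28 tested, 8 were lower DEGs and none was a higher DEG, and the median log2 fold change was -0.26, against -0.0023 for all tested genes. Lower DEGs made up 5.05% of all tested genes and higher DEGs 3.59%. The 24 stromal markers, with 12 lower DEGs and a median of -0.53, also fell, and their part in this list was not tested. The heparan sulfate proteoglycan gene Sdc1 fell from 49.6 ± 7.18 to 22.1 ± 2.98 CPM (log2 fold change -1.17, SE 0.135, adjusted p = 0.00835, edgeR's quasi-likelihood test). Sulf1, which encodes an extracellular sulfatase that removes sulfate groups from heparan sulfate and lowers FGF binding, fell by 0.98 on the log2 scale (SE 0.181, adjusted p = 0.0267), as did the glypican gene Gpc6 by 0.89 (SE 0.157, adjusted p = 0.0243). Fgfbp3, which encodes an FGF carrier protein, was a lower DEG at -1.03 (SE 0.274, adjusted p = 0.0768, edgeR's quasi-likelihood test). Sdc3, the most abundant gene of this list by CPM and named after its value was seen, rose by 0.58 on the log2 scale (adjusted p = 0.0434) from 825 ± 154 to 1231 ± 99.9 CPM, just under the fold change of a DEG.

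Of 24 tested genes that relay the receptor signal, including Frs2, Grb2, Ptpn11 and the RAS, RAF, MEK and ERK genes, 1 was a lower DEG and none had an adjusted p under 0.05 in edgeR's quasi-likelihood test, with a median log2 fold change of -0.07. That gene was Rps6ka3, an ERK-activated ribosomal S6 kinase gene, at -0.59 (SE 0.230, adjusted p = 0.208), and it was no DEG when MSR1 KO replicate 2, MSR1 KO replicate 3 or MSR1 WT replicate 2 was left out. Of 18 feedback and target genes, 3 were lower DEGs and the median was -0.23. Without MSR1 KO replicate 1, 5 were lower DEGs. For both lists, the share to compare is the 5.05% of all tested genes that were lower DEGs. Dusp6, Spry2 and Dusp5, feedback genes named after their values were seen, were at -0.05, 0.15 and 0.33, none a DEG. All MSR1 KO libraries were below all MSR1 WT libraries for 8 of the 18 and above them for 1 (Dusp5). The ERK phosphatase gene Dusp4 fell from 5.01 ± 0.406 to 2.04 ± 0.262 CPM (log2 fold change -1.29, SE 0.194, adjusted p = 0.0172, edgeR's quasi-likelihood test). The Sprouty gene Spry1 fell by 1.13 on the log2 scale (SE 0.238, adjusted p = 0.0377), and Fosl1, an AP-1 subunit gene, was a lower DEG at -0.60 (SE 0.188, adjusted p = 0.123). Fosl1 was no DEG when MSR1 KO replicate 2, MSR1 KO replicate 3 or MSR1 WT replicate 2 was left out. Etv5, an ETS factor gene named after its value was seen, fell by 0.35 (SE 0.0758, adjusted p = 0.0402) and was no DEG by its fold change. Most of these genes also respond to other receptors.

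**Figure D5:**
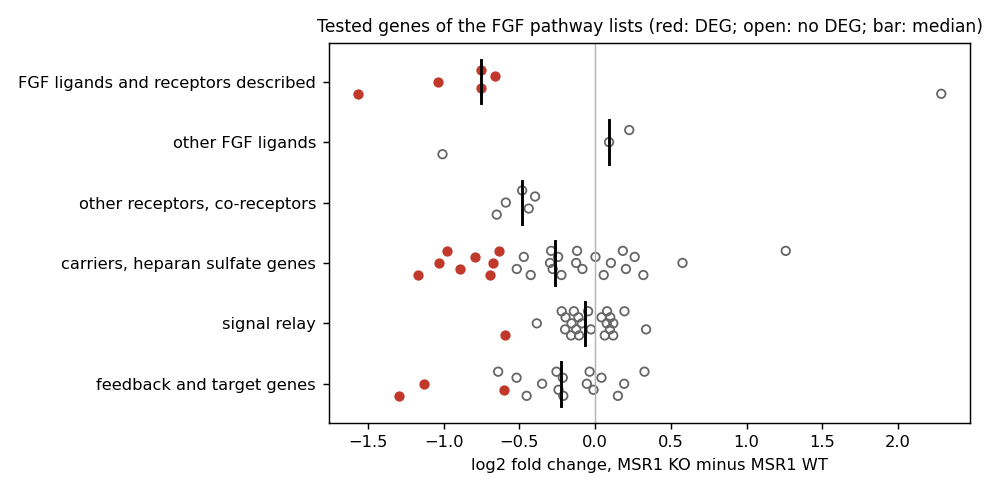
Log2 fold change of MSR1 KO against MSR1 WT (x axis) for every tested gene of the FGF lists (rows); red points are DEGs, open points are not, and vertical bars are medians. The carriers and heparan sulfate genes hold 8 lower DEGs, the feedback and target genes 3, and the signal relay genes 1, near medians of -0.26, -0.23 and -0.07.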

How the data were processed

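Macrophage RNA of 3 MSR1 KO and 3 MSR1 WT libraries was measured by mRNA sequencing. The deposited table holds raw counts per gene made by the authors. Its size-factor-normalized signal, log2 fold changes and p-values of the authors' own comparison, and gene span were not used. The methods name TopHat and FPKM, whereas the submitters' processing notes list fastp 0.17.1, HISAT2 2.1.0, DESeq2 1.18.1 and R 3.4.3. For the counts, neither the program nor the strand setting is given in the sources used here, and no genome build is named. Of 52550 genes, 49909 had the start and end of GENCODE M21 (GRCm38), which supplied exons and lengths. In every library, fewer genes were listed at 3 counts (335 to 415) than at 4 (771 to 879), for a reason not given in the sources used here.

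Counts were filtered (filterByExpr, minimum 10), scaled by TMM and tested with edgeR 4.0.16 (R 4.3.3) by the quasi-likelihood test without covariates, adjusted by Benjamini-Hochberg over 16402 genes. A DEG changed more than 1.5-fold with p under 0.05 before adjustment. CPM used TMM-scaled library sizes, and RPKM divided CPM by the union of exons. SE was the size of the log2 fold change divided by the root of the F statistic. Total counts were 36143518 to 47417448 per library. Intervals for counts of 0 cover counting error only.

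All members, Msr1 and genes sharing exon bases with a member were named. Among the latter, Gm16263 covers 2.67% of the exon bases of Fgf10 and G630022F23Rik 13.9% of those of Fgfr3. Both were at 0 counts in every library. Of each FGF list, up to 4 DEGs with the largest change were named, or the 2 most abundant tested genes where there was no DEG. Of the macrophage and stromal lists, the 5 most abundant genes were named, and of other marker lists the first. The members and lists were chosen with earlier results of these data known. Alternatives were DESeq2 1.42.0, its size factors, library size alone, other count filters, the replicate number as a block, leaving out each library, and the longest transcript as length.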

Additional observations from a re-analysis of the deposited data

How the results depend on the processing

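The fold changes of the 6 tested genes kept their direction under DESeq2, other scalings, other filters, the replicate block and leaving out each library. Requiring 10 counts in every library gave no value for Fgf2 or Fgf20. With an adjusted p under 0.05 were 3 of the 6 by DESeq2, 0 with the replicate block and 0 to 2 without 1 library, where the 2 were Fgf2 and Fgf7 without MSR1 WT replicate 3. Lower DEGs numbered 3 to 5 without 1 library, and higher DEGs 1 (Fgf2) with the replicate block and 0 to 1 without 1 library.

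The replicate numbers did not pair the libraries: deviations of libraries with the same number correlated at -0.026, 0.019 and -0.0048 across genes. Of all genes, those with an adjusted p under 0.05 numbered 369 higher and 436 lower, and 720 and 848 by DESeq2, 237 and 288 without the filter, 59 and 78 with the replicate block, and 18 to 407 and 53 to 372 without 1 library, the lowest without MSR1 WT replicate 1. The cause was not tested.

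Lower DEGs among the other FGF ligands numbered 1 (Fgf13) by DESeq2, with 10 counts in every library and with the replicate block, and 0 to 1 without 1 library. The replicate block gave 1 higher DEG (Sdc3) among the carriers and heparan sulfate genes and 0 lower DEGs in the signal relay. Without 1 library, there were 0 to 1 lower DEGs (Ncam1) among the other receptors and co-receptors, 0 to 1 higher DEGs among the carriers, 0 to 1 higher and 0 to 1 lower DEGs in the signal relay, and 2 to 5 lower DEGs among the feedback and target genes. Fgf10, Fgf18, Fgf20 and Fgfr3 had at most 29 counts in any library, and Fgf2 had 0 and 1 in MSR1 WT replicates 1 and 2. The effect of depth was not tested.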
